A study of Mus musculus with 12 samples.

Results

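The 10 genes described here, Selp, Slamf1, Clu, Ehd3, Aldh1a1, Alcam, Cd38, Dsg2, Ghr and Sult1a1, are known for higher messenger RNA in haematopoietic stem cells of old mice than of young mice. They were chosen by name and are 10 of the 54532 genes in the count table. Messenger RNA was sequenced from mouse bone marrow haematopoietic stem and progenitor cells (HSPCs), the cells from which the blood lineages arise, in 12 libraries that formed 4 groups of 3. The uridine group held HSPCs of aged mice treated with uridine, a pyrimidine nucleoside. The vehicle group held HSPCs of aged mice treated with the vehicle alone. The aged and the young groups held HSPCs of aged and of young mice that were labelled as uncultured. All mice were labelled wild type of a C57BL strain, but the strain number in the labels differs between libraries, so the strain is uncertain. The sources used here do not give mouse ages, the uridine dose, the time in culture, the surface markers of the sort or any pooling of animals.

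Stem cells of old mice expand in number, make fewer lymphocytes and carry a recurring set of raised transcripts, many of which are surface proteins shared with megakaryocytes and platelets. Selp encodes P-selectin, Alcam an adhesion receptor of the immunoglobulin superfamily, and Dsg2 a cadherin of desmosomes. Slamf1 encodes CD150, the signalling lymphocyte activation receptor by which mouse stem cells are sorted, and Ghr the growth hormone receptor. Cd38 encodes an enzyme of the cell surface that breaks down NAD, Aldh1a1 an aldehyde dehydrogenase that makes retinoic acid, and Sult1a1 a cytosolic sulfotransferase of phenols. Clu encodes clusterin, a secreted chaperone, and Ehd3 an ATPase that shapes recycling endosomes.

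Library totals ran from 16785065 to 19025802 counts, 16675 genes passed the filter on low counts, and all 10 genes were among them. Levels are given as CPM, the counts of a gene per total library count after scaling with TMM factors. The stem and progenitor markers Kit and Cd34 were present in all 4 groups, at 273.9 and 348.7 CPM in uridine, 261.9 and 406.8 CPM in vehicle, 201.5 and 200.7 CPM in aged and 253.9 and 281.8 CPM in young libraries. Ly6a, which encodes the stem cell antigen Sca-1, had 258.4 CPM in uridine, 454.7 CPM in vehicle, 247 CPM in aged and 17.8 CPM in young libraries. Immunoglobulin genes took 0.554% to 0.567% of the counts in uridine, 0.839% to 0.842% in vehicle, 19.63% to 19.96% in aged and 0.508% to 0.512% in young libraries. Nothing in the labels ties the 3 libraries of a group to different animals or culture wells. The p-values therefore rest on a spread between libraries that may be technical. In bulk libraries, fewer cells of a type and less RNA per cell cannot be told apart.

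The promoter windows of 4 of the genes are shown because Selp, Ehd3 and Aldh1a1 moved together across the groups and Slamf1 gave the largest fall in uridine among the genes called lower. Each window holds 250 bases before and 50 bases after a RefSeq start site on the GRCm38.p6 assembly, read 5′ to 3′ on the plus strand, with matches to the searched motifs in capitals.
Selp (chr1:164115014-164115313): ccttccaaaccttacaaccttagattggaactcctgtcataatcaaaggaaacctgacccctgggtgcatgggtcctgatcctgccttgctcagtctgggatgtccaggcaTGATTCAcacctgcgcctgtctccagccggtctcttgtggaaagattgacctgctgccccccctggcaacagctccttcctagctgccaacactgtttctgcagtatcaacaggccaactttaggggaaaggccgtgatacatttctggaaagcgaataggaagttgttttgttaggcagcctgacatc
Ehd3 (chr17:73804591-73804890): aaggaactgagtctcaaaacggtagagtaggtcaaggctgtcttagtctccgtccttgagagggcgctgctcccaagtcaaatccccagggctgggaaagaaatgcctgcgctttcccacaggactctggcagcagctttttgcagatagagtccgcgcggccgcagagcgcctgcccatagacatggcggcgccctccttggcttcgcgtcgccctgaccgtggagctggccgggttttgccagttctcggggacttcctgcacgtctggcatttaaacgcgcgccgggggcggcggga
Aldh1a1 (chr19:20492333-20492632): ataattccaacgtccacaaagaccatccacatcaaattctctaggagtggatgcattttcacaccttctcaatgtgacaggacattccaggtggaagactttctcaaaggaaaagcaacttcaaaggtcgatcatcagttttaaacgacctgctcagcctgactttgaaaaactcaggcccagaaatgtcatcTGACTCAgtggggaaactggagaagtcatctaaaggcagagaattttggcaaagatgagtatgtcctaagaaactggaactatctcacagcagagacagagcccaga
Slamf1 (chr1:171766882-171767181): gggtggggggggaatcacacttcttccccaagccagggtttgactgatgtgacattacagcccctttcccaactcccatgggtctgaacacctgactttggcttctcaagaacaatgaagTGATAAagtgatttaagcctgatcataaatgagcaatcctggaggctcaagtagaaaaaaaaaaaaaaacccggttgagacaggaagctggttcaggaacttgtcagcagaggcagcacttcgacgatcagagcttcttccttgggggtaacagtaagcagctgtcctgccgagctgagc
The motifs searched, on both strands, were TGANTCA of AP-1, AGATAA and TGATAA of GATA factors, TGTGGT of RUNX and CCGGAAG of ETS factors. TGANTCA starts at position -139 from the start site of Selp and at position -57 in this window of Aldh1a1, and TGATAA starts at position -130 in Slamf1. Aldh1a1 has another RefSeq start site inside the gene, with a window at chr19:20601718-20602017 that is not shown. That window holds no TGANTCA, and AGATAA starts at position -32 in it. No motif of the 5 was found in the Ehd3 window. Of 32851 mouse promoter windows of 300 bases, 7.81% hold TGANTCA, 11.2% hold AGATAA and 9.05% hold TGATAA. Windows were used for 8 of the 10 genes, with none for Clu and Dsg2. Of these 10 windows (Aldh1a1 and Ghr have 2 each) 3 hold TGANTCA, 2 hold AGATAA, 1 holds TGATAA and 0 hold the other motifs. Those motifs, TGTGGT and CCGGAAG, are in 16.8% and 8.86% of all windows. A match is a run of letters and not a measured binding site.

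The 3 adhesion genes had different orders of the groups. Selp (ENSMUSG00000026580, chromosome 1, 164115264 to 164150026, plus strand, mm10) had 37.9, 40.2 and 37.2 CPM in uridine, 55.4, 50.6 and 53.3 CPM in vehicle, 23.4, 19.4 and 23.6 CPM in aged, and 6.85, 5.91 and 5.85 CPM in young libraries. Every vehicle library lay above every uridine library, every uridine library above every aged one, and every aged library above every young one. Exons of Selp share 438 and 186 bases with the antisense genes Gm16548 and Gm16587, which had 83 and 89 counts over the 12 libraries.

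Alcam (ENSMUSG00000022636, chromosome 16, 52248996 to 52454074, minus strand) had 42.3, 43.8 and 47.0 CPM in uridine, 50.5, 50.8 and 50.5 CPM in vehicle, 65.9, 63.8 and 71.1 CPM in aged, and 31.9, 30.6 and 29.8 CPM in young libraries. Here the aged libraries were highest, and no groups overlapped. Dsg2 (ENSMUSG00000044393, chromosome 18, 20558074 to 20604521, plus strand) was low throughout, with 2.41, 2.51 and 2.29 CPM in uridine, 3.63, 3.13 and 2.94 CPM in vehicle, 1.13, 1.18 and 2.27 CPM in aged, and 0.999, 0.548 and 0.492 CPM in young libraries. Its groups stood in the same order as those of Selp, although the highest aged library was just under the lowest uridine one.

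The receptor genes were low in young libraries. Slamf1 (ENSMUSG00000015316, chromosome 1, 171767127 to 171801184, plus strand) had 2.86, 3.38 and 3.73 CPM in uridine, 5.26, 5.77 and 5.76 CPM in vehicle, 7.12, 6.89 and 6.61 CPM in aged, and 0.949, 1.04 and 1.20 CPM in young libraries. The order was aged, vehicle, uridine and young with no overlap, but aged and vehicle did not pass the test of their difference. Ghr (ENSMUSG00000055737, chromosome 15, 3317760 to 3583492, minus strand) had 0.936, 1.54 and 2.09 CPM in uridine, 1.74, 1.43 and 1.24 CPM in vehicle, 1.86, 3.20 and 3.10 CPM in aged, and 0.650, 0.712 and 0.711 CPM in young libraries. The uridine libraries of Ghr spanned all vehicle libraries and reached into the aged range.

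The enzymes split into one gene that was high after culture and a pair that was high in uncultured aged cells. Aldh1a1 (ENSMUSG00000053279, chromosome 19, 20492715 to 20643465, plus strand) had 42.0, 35.0 and 38.8 CPM in uridine, 58.6, 57.3 and 57.9 CPM in vehicle, 28.2, 27.5 and 28.6 CPM in aged, and 18.2, 17.2 and 15.6 CPM in young libraries, with no overlap between any groups. Its reads may be shared with the near-identical Aldh1a7, which averaged 1.67 CPM in uridine, 0.369 CPM in vehicle, 2.94 CPM in aged and 4.26 CPM in young libraries.

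Cd38 (ENSMUSG00000029084, chromosome 5, 43868553 to 43912375, plus strand) had 7.24, 5.37 and 5.22 CPM in uridine, 8.68, 6.48 and 6.10 CPM in vehicle, 67.7, 67.3 and 63.8 CPM in aged, and 5.95, 4.22 and 4.92 CPM in young libraries. The aged libraries stood apart, and the ranges of the other 3 groups overlapped pairwise between neighbours. Sult1a1 (ENSMUSG00000030711, chromosome 7, 126672865 to 126676432, minus strand) had 1.43, 1.38 and 1.84 CPM in uridine, 0.894, 0.714 and 1.13 CPM in vehicle, 17.2, 15.6 and 17.1 CPM in aged, and 1.90, 3.18 and 1.48 CPM in young libraries. It was the 1 gene of the 10 whose mean was lowest in vehicle, and its uridine libraries overlapped the young ones. Its exons share 61 bases with Sgf29 on the other strand, and since use of strand in the counting is not given in the sources used here, reads of both genes there cannot be told apart.

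Of the secreted and intracellular proteins, Clu (ENSMUSG00000022037, chromosome 14, 65968483 to 65981547, plus strand) had 14.6, 14.5 and 16.0 CPM in uridine, 22.9, 21.3 and 21.3 CPM in vehicle, 12.1, 12.1 and 8.27 CPM in aged, and 2.30, 3.01 and 3.66 CPM in young libraries. Ehd3 (ENSMUSG00000024065, chromosome 17, 73804134 to 73832094, plus strand) had 42.4, 38.2 and 37.3 CPM in uridine, 56.0, 54.1 and 61.5 CPM in vehicle, 20.3, 23.9 and 24.3 CPM in aged, and 4.75, 5.91 and 5.09 CPM in young libraries. Both genes showed the order of Selp, with no overlap between groups.

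**Figure D1:**
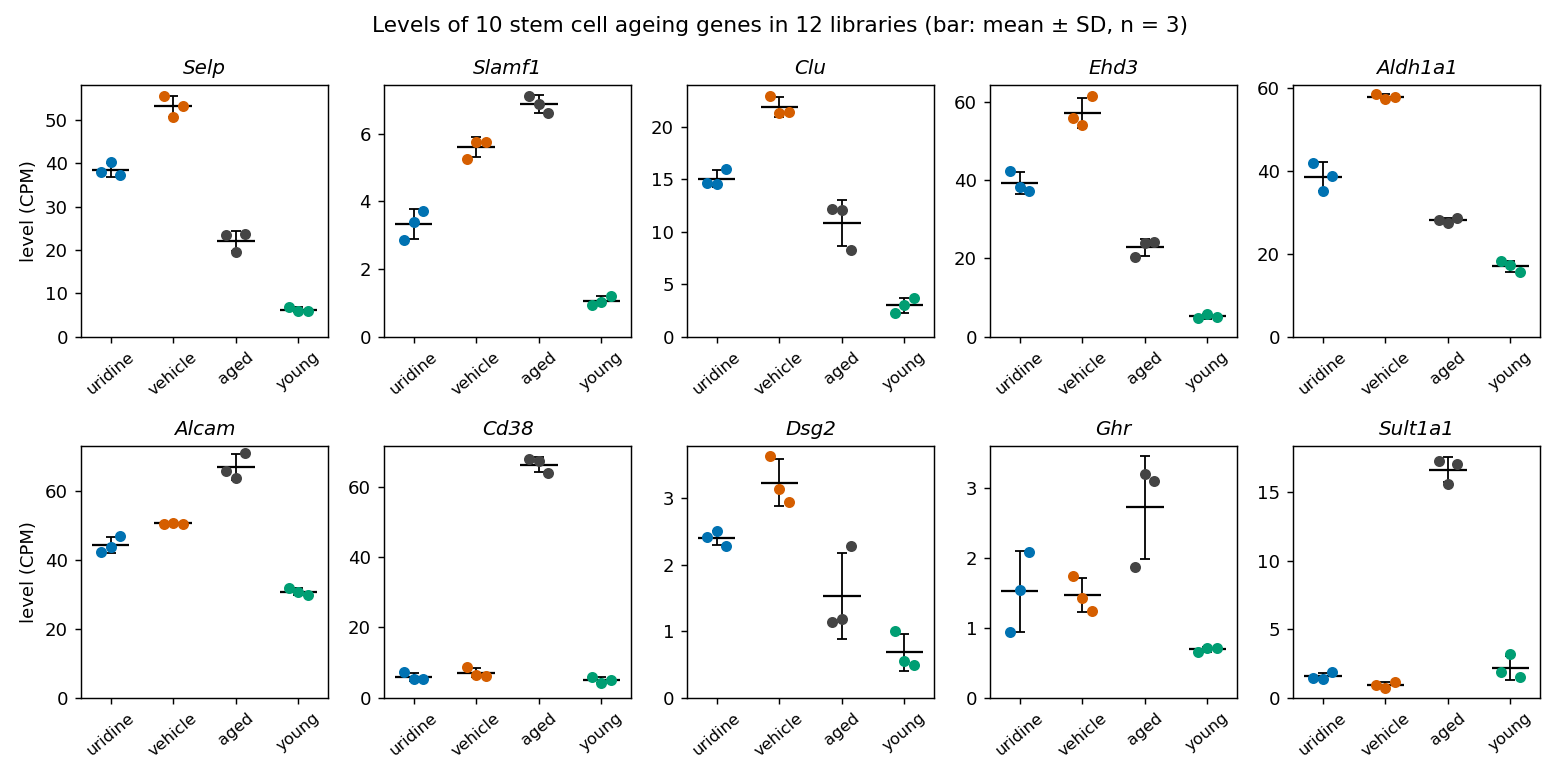
Level of each of the 10 genes in CPM (vertical axis, linear, from 0) in the 12 libraries by group, with points for libraries and bars for the mean ± SD (n = 3). Selp, Clu, Ehd3, Aldh1a1 and Dsg2 are highest in vehicle and lowest in young libraries, whereas Cd38 and Sult1a1 stand out in aged libraries alone.

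Scaled for exon length as RPKM (CPM per kilobase of exon), Selp was the most abundant of the 10 in uridine, at 8.71 ± 0.355, and in vehicle libraries, at 12.0 ± 0.549 (SD, n = 3 each). Aldh1a1 followed at 7.82 ± 0.700 RPKM in uridine and 11.7 ± 0.131 RPKM in vehicle libraries, overlapping Selp in both groups within 1 SD. Cd38 led in aged libraries at 17.0 ± 0.552 RPKM, followed by Sult1a1 at 11.0 ± 0.607 RPKM. Alcam led in young libraries at 4.32 ± 0.152 RPKM, and Dsg2 and Ghr were lowest there, at 0.0822 ± 0.0337 and 0.0763 ± 0.00393 RPKM.

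The comparison of aged with young cells asked how the genes differ with the age of the mouse before culture. Called at an edgeR adjusted p under 0.05, all 10 rose with age, where 33.2% of all genes tested did (65.3% in either direction), with a median log2 fold change of 1.92 for the 10 and 0.02 for all genes. The genes were chosen for being raised in old stem cells, and with earlier results of these data known. This direction is therefore neither separate evidence nor a check of the list. Cd38 changed most, at 66.3 ± 2.15 CPM in aged against 5.03 ± 0.870 CPM in young libraries (log2 fold change 3.71, SE 0.121, edgeR adjusted p = 5.27e-25), a ratio of 13.2. Sult1a1 rose by 2.93 on the log2 scale and Slamf1 by 2.69. Ehd3, Ghr, Clu and Selp rose by 2.12, 1.97, 1.86 and 1.83 on that scale. The smallest changes were those of Dsg2 (1.15), Alcam (1.12) and Aldh1a1 (0.72, SE 0.0813, edgeR adjusted p = 1.01e-09). No aged library of any of the 10 overlapped the young ones, as held for 66.9% of all genes tested. Dsg2, with 67 counts over the aged and 39 over the young libraries, had an edgeR adjusted p of 0.00660, which was 0.0501 with library totals in place of TMM factors and 0.105 without aged replicate 3.

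Markers of several other cell types moved in the same comparison. All 10 plasma cell markers were higher in aged than in young libraries, and their summed level ran from 25890 to 26170 CPM in aged and from 691 to 699 CPM in young libraries. Most of the sum in aged libraries was the marker Jchain, at 23450 CPM, against 302.6 CPM in young libraries. Of 10 B cell markers 9 were higher and 1 lower, at 2442 to 2517 CPM in aged and 583 to 594 CPM in young libraries. Of 11 markers of T and natural killer cells 8 were higher and 1 lower, at 291 to 319 CPM in aged and 116 to 119.5 CPM in young libraries. All 10 neutrophil markers were lower, at 554 to 595 CPM in aged and 5478 to 5690 CPM in young libraries, as were all 11 erythroid markers, at 498 to 505 CPM in aged and 1178 to 1189 CPM in young libraries. Of 13 tested megakaryocyte and platelet markers 8 were lower and 1 higher, at 137 to 142 CPM in aged and 210.3 to 214 CPM in young libraries. Of 8 markers of mast cells and basophils 7 were lower, and of 12 tested markers of stroma and endothelium 8 were lower and 2 higher. The lists of monocytes and macrophages (4 of 12 higher, 5 lower) and dendritic cells (3 of 9 higher, 6 lower) moved both ways. Of 7 stem and progenitor markers 2 were higher and 4 lower. Their summed level was 1271 to 1323 CPM in aged and 1287 to 1316 CPM in young libraries. That sum joins opposite changes and does not mean equal levels of the single markers. Ly6a stood at 247 CPM in aged and 17.8 CPM in young libraries, but Kit at 201 and 254 CPM and Flt3 at 105 and 186 CPM. Of 10 long-term stem cell markers 6 were higher and 1 lower. Those summed to 196 to 204 CPM in aged and 169 to 177 CPM in young libraries. CD38 is in routine use as a marker of human plasma cells, and whether it marks those of the mouse was not tested here. The part of any of these cells in the change of the 10 genes was not tested. Of the markers on these lists, Gp1bb of megakaryocytes and platelets was at 0 in all aged and young libraries and Bglap of stroma in all aged libraries.

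The comparison of vehicle-treated with uncultured aged cells divided the genes into sets that moved in opposite directions. Selp, Clu, Ehd3, Aldh1a1 and Dsg2 rose (5 of 10, where 35.4% of all genes tested were higher), and Alcam, Cd38, Ghr and Sult1a1 fell (4 of 10, where 35.1% were lower). Ehd3 averaged 57.2 ± 3.87 CPM in vehicle and 22.9 ± 2.21 CPM in aged libraries (log2 fold change 1.32, SE 0.0811), and Selp 53.1 ± 2.42 CPM in vehicle and 22.1 ± 2.34 CPM in aged libraries (1.26, SE 0.0790). Sult1a1 averaged 0.913 ± 0.208 CPM in vehicle and 16.6 ± 0.915 CPM in aged libraries (-4.18, SE 0.233, edgeR adjusted p = 4.33e-18). Cd38 fell to 7.09 ± 1.39 CPM in vehicle, against 66.3 ± 2.15 CPM in aged libraries (-3.22, SE 0.115, edgeR adjusted p = 5.82e-24). Slamf1 was not called, at 5.60 ± 0.292 CPM in vehicle and 6.88 ± 0.255 CPM in aged libraries (-0.30, SE 0.175, edgeR adjusted p = 0.129), and its sign turned with library totals in place of TMM factors (0.04). In all, 9 of the 10 were called, where 70.5% of all genes tested were, and vehicle and aged libraries were without overlap for 10 of 10 (71.5% of all genes). The median of the 10 log2 fold changes was 0.36, against -0.01 over all genes.

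Scaling by library totals moved the median log2 fold change of all genes to 0.32 in this comparison, to 0.39 in uridine against aged and to -0.32 in aged against young libraries. With it the calls of Alcam (edgeR adjusted p = 0.298) and Ghr (edgeR adjusted p = 0.131) were lost. The call of Ghr, with an edgeR adjusted p of 0.0168, was also lost without vehicle replicate 3 (0.0661), aged replicate 2 (0.0724) or aged replicate 3 (0.0614). Summed markers of megakaryocytes and platelets stood at 1496 to 1514 CPM in vehicle and 137 to 142 CPM in aged libraries, with 12 of 13 tested markers higher and 1 not called, and Gp1bb was at 0 in the aged libraries. Selp, Clu and Ehd3 are transcribed in megakaryocytes as well, and the part of such cells in these differences was not tested. All 10 plasma cell and all 10 B cell markers and 10 of 11 markers of T and natural killer cells were lower in vehicle libraries. The plasma cell markers had a summed level of 1099 to 1149 CPM in vehicle and 25890 to 26170 CPM in aged libraries. Jchain made up most of it in both groups, at 780.5 CPM in vehicle and 23450 CPM in aged libraries. Stem and progenitor markers (4 of 7 higher, 1 lower) and long-term stem cell markers (3 of 10 higher, 3 lower) moved both ways.

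Uridine-treated cells were compared with vehicle-treated cells to ask what uridine changed in culture. Selp, Slamf1, Clu, Ehd3, Aldh1a1 and Alcam fell (6 of 10, where 18.1% of all genes tested were lower), Sult1a1 rose (1 of 10, where 20% were higher), and Cd38, Dsg2 and Ghr were not called (7 of 10 called, against 38.1% of all genes). The median of the 10 log2 fold changes was -0.45, against -0.0011 over all genes. Aldh1a1 averaged 38.6 ± 3.46 CPM in uridine and 57.9 ± 0.644 CPM in vehicle libraries, 66.6% of the vehicle level (log2 fold change -0.58, SE 0.0676, edgeR adjusted p = 6.55e-09). Ehd3 had 68.7% of its vehicle level (-0.54, SE 0.0741, edgeR adjusted p = 2.21e-07), Clu 68.8% (-0.54, SE 0.117, edgeR adjusted p = 0.000322) and Selp 72.4% (-0.47, SE 0.0721, edgeR adjusted p = 2.08e-06). The fall of Slamf1 was the largest in size and the least precise of the 6, at 3.32 ± 0.439 CPM in uridine and 5.60 ± 0.292 CPM in vehicle libraries (-0.75, SE 0.183, edgeR adjusted p = 0.00117).

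Alcam fell least, to 44.3 ± 2.42 CPM in uridine, against 50.6 ± 0.143 CPM in vehicle libraries (-0.19, SE 0.0601, edgeR adjusted p = 0.0112). Dsg2 did not pass the test (-0.43, SE 0.277, edgeR adjusted p = 0.235), although its 3 uridine libraries lay below its 3 vehicle libraries. Such a separation of libraries held for 8 of the 10 and for 50% of all genes tested. Cd38 averaged 5.94 ± 1.12 CPM in uridine and 7.09 ± 1.39 CPM in vehicle libraries (-0.26, SE 0.143, edgeR adjusted p = 0.164), and Ghr 1.52 ± 0.577 CPM in uridine and 1.47 ± 0.249 CPM in vehicle libraries (0.05, SE 0.337, edgeR adjusted p = 0.932). Sult1a1, with 93 counts over the uridine and 50 over the vehicle libraries, had a log2 fold change of 0.76 (SE 0.298, edgeR adjusted p = 0.0409).

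With single libraries left out, 2 of the 7 calls were lost in some fits, at log2 fold changes of the same sign. Without uridine replicate 1 Alcam was at -0.16 (edgeR adjusted p = 0.0682), and Cd38 was called lower (-0.43, edgeR adjusted p = 0.0335). Sult1a1 was at 0.75 without vehicle replicate 1 (edgeR adjusted p = 0.0957), at 0.61 without vehicle replicate 2 (0.160), at 0.82 without uridine replicate 1 (0.0546) and at 0.62 without uridine replicate 3 (0.162). Beside these values, 12 of 13 tested megakaryocyte and platelet markers were lower in uridine libraries and 1 was not called, with a summed level of 994 to 1011 CPM in uridine and 1496 to 1514 CPM in vehicle libraries. Gp1bb was at 0 in uridine libraries. Markers of neutrophils (9 of 10 higher, 1 lower) summed to 2059 to 2128 CPM in uridine and 319 to 328 CPM in vehicle libraries, and all 11 erythroid markers were higher, at 673 to 682 CPM in uridine and 417 to 429 CPM in vehicle libraries, where Slc4a1 was at 0. B cell markers (9 of 10 higher) summed to 214 to 230.4 CPM in uridine and 50.3 to 51.3 CPM in vehicle libraries, and markers of T and natural killer cells (9 of 11 higher) to 59.4 to 63.2 CPM in uridine and 37.5 to 40.9 CPM in vehicle libraries. Markers of stroma and endothelium (7 of 12 tested higher, 2 lower) summed to 418 to 427 CPM in uridine and 337 to 351 CPM in vehicle libraries, where Col3a1 was at 0. The lists of monocytes and macrophages (3 of 12 higher, 6 lower), plasma cells (2 of 10 higher, 4 lower), dendritic cells (5 of 9 higher, 2 lower) and mast cells and basophils (3 of 8 higher, 3 lower) moved both ways. Of 7 stem and progenitor markers 1 was higher and 4 lower. Their summed level was 1568 to 1604 CPM in uridine and 1824 to 1839 CPM in vehicle libraries. Among them Ly6a differed most in CPM, at 258 CPM in uridine and 454 CPM in vehicle libraries. Of 10 long-term stem cell markers 1 was higher and 4 lower. Those summed to 208 to 228 CPM in uridine and 254 to 265 CPM in vehicle libraries. The part of any of these cells in the change of the 10 genes was not tested.

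**Figure D2:**
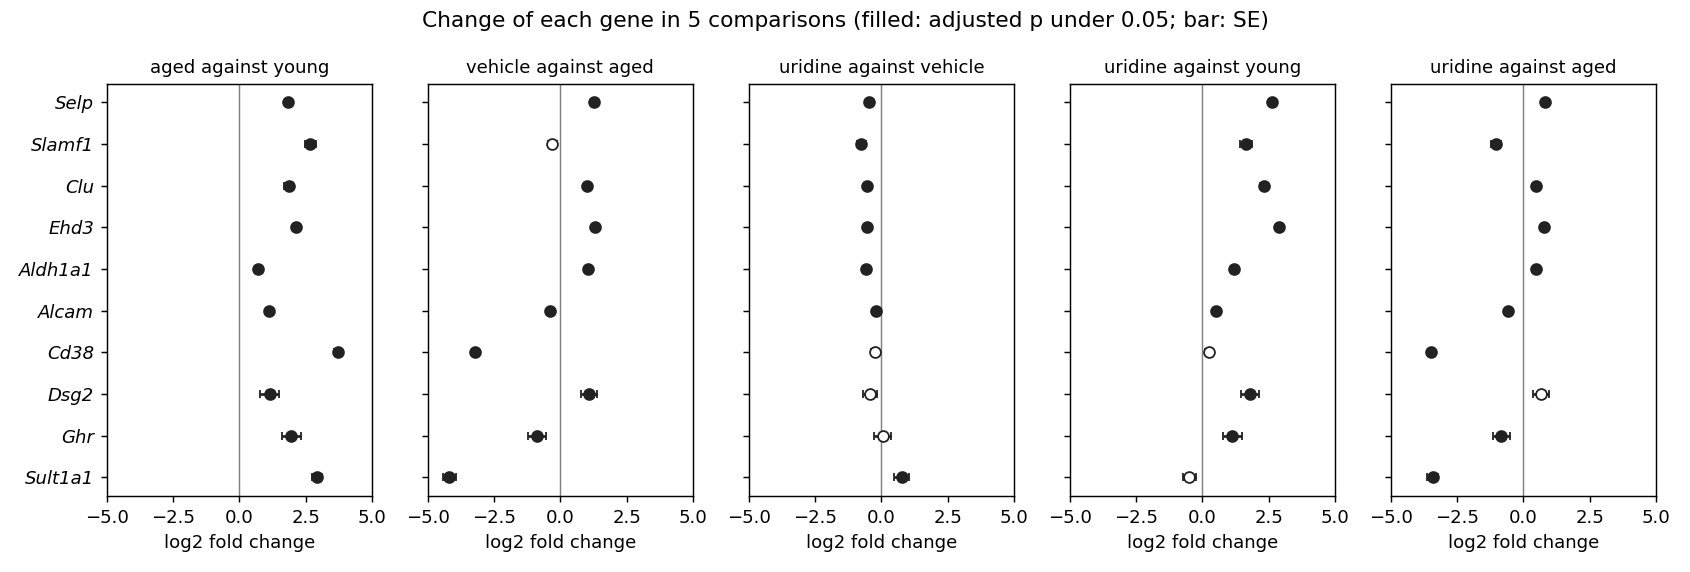
Log2 fold change of each gene (horizontal axis) in 5 comparisons, with SE bars, from edgeR's quasi-likelihood fit of 12 libraries; filled points have an adjusted p under 0.05. All 10 points lie right of 0 for aged against young, and 6 filled points lie left of 0 for uridine against vehicle, the lowest at -0.75.

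Set against both uncultured groups, the uridine libraries lay above young cells for most genes and on either side of aged cells. Against young libraries 8 of the 10 were higher (26.2% of all genes tested were) and 0 lower by edgeR (23.3% were; 49.4% were called in either direction), with a median log2 fold change of 1.41 for the 10 and -0.0040 over all genes. The libraries did not overlap the young ones for 8 of the 10, and for 57.2% of all genes. Ehd3 was 7.49 times and Selp 6.20 times the young level, and Alcam 1.44 times. Cd38 (log2 fold change 0.24, SE 0.151, edgeR adjusted p = 0.199) and Sult1a1 (-0.49, SE 0.254, edgeR adjusted p = 0.110) were not called. At an unadjusted p under 0.05 none of the 10 was lower either, and DESeq2 called 0 lower, but without young replicate 3 Sult1a1 was called lower (-0.70, edgeR adjusted p = 0.0266). The call of Ghr (1.13, edgeR adjusted p = 0.0113) was lost without uridine replicate 3 (edgeR adjusted p = 0.106).

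Against aged libraries Selp, Clu, Ehd3 and Aldh1a1 were higher in uridine (4 of 10, where 35.8% of all genes tested were) and Slamf1, Alcam, Cd38, Ghr and Sult1a1 lower (5 of 10, where 32.1% were). Together 9 of 10 were called, against 67.9% of all genes, and for 9 of 10 the libraries did not overlap, against 69.3% of all genes. Selp had 1.74 times and Ehd3 1.72 times the aged level, and Clu and Aldh1a1 had 1.39 and 1.38 times. Slamf1 stood at 48.3% and Alcam at 66.3% of the aged level, with log2 fold changes of -1.05 (SE 0.183) and -0.59 (SE 0.0598). Dsg2 was not called (0.65, SE 0.310, edgeR adjusted p = 0.0620), but passed with library totals (1.01, edgeR adjusted p = 0.00408), with voom (limma adjusted p = 0.0447) and without aged replicate 3 (1.05, edgeR adjusted p = 0.00863). The call of Ghr (edgeR adjusted p = 0.0223) was lost with library totals (0.179) and without uridine replicate 1 (0.139), aged replicate 2 (0.0905) or aged replicate 3 (0.0768). These comparisons share libraries with each other, and their values are given side by side only.

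The next question was which genes were lower in uridine libraries than a mix of vehicle and young levels would give. For a mix in any proportion the level lies between the levels of both groups. By edgeR's one-sided tests in both directions, 0 of the 10 genes lay below both vehicle and young libraries, where 0.558% of all genes tested did, and 0 lay above both, where 0.156% did. At an unadjusted p under 0.05 the counts were also 0 and 0. The smallest unadjusted p was 0.937 for a level below both (Cd38) and 0.447 for a level above both (Ghr). For genes far lower in young than in vehicle libraries, a level below both must be under the young level. Ehd3, for instance, would have to fall from 57.2 CPM in vehicle to under 5.25 CPM. The count of 0 therefore cannot show whether such genes fell short of a mix by less.

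A mix in a fixed proportion was set from other genes. In 145 genes whose young level was at least 10 times their vehicle level, the uridine level lay at a median of 33.3% of the way from the vehicle to the young level (33.7%, 32.9% and 34.2% in the 3 uridine libraries, with quartiles over genes of 31.0% and 36.3%). In 180 genes whose vehicle level was at least 10 times their young level, the uridine level was a median of 60.2% of the vehicle level. The quartiles were 56.0% and 66.7%, and the median is a fall of 39.8%. The young level was not subtracted in this measure, so the fall is somewhat smaller than the proportion that these genes would give. The measures put the proportion at different values, and that from the young-high genes set the mix. Each of its 3 values joins a vehicle and a young library of the same number, which has no stated meaning. The mix is a calculation on levels and says nothing of which cells were in the culture.

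With 33.3% of young and the rest of vehicle levels, 1 of the 10 genes fell below the mix and 0 rose above it by limma on log2(CPM + 0.5), where 6.75% of all genes tested were lower and 5.32% higher. At an unadjusted p under 0.05 also 0 lay above it, and edgeR on the mix rounded to counts called 0 above it. The gene below it was Aldh1a1. Its 3 uridine libraries had 42.0, 35.0 and 38.8 CPM, against 45.1, 43.9 and 43.8 CPM in the 3 values of the mix. All uridine libraries lay below all values of the mix (log2 difference -0.20, SE 0.0578, 95% interval -0.32 to -0.08, limma adjusted p = 0.0350). In terms of the proportion, the uridine level of Aldh1a1 lay 0.472 ± 0.0845 of the way from vehicle to young (SD over 3 libraries).

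The call of Aldh1a1 held with a proportion at the lower quartile (limma adjusted p = 0.0148) but not at the upper quartile (limma adjusted p = 0.0965) or at the 39.8% from vehicle-high genes (difference -0.11, limma adjusted p = 0.266). It was also lost with library totals (difference -0.17, limma adjusted p = 0.0661) and with no low-count filter (-0.20, limma adjusted p = 0.246). In 9 further fits a uridine, vehicle or young library was left out. Leaving out a vehicle or young library also removed the value of the mix that it formed. Fits without the vehicle or the young library of the same number are therefore nearly alike. The difference stayed below 0 in all 9 fits. It passed without uridine replicate 1 (-0.26, limma adjusted p = 0.00920), was smallest without uridine replicate 2 (-0.13, limma adjusted p = 0.144), and in the other 7 fits lay between -0.18 and -0.21 at limma adjusted p-values of 0.0848 to 0.186.

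Slamf1 had the largest distance below the mix in size but was not called. Its uridine libraries had 2.86, 3.38 and 3.73 CPM, against 3.82, 4.19 and 4.24 CPM in the mix. All 3 lay below the lowest value of the mix (difference -0.27, SE 0.145, 95% interval -0.58 to 0.04, limma adjusted p = 0.276). The interval holds a level equal to the mix as well as one far below it.

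Selp, Ehd3, Alcam and Clu were close to the mix with narrow intervals. Selp averaged 38.4 CPM in uridine libraries and 37.5 CPM in the mix (difference 0.04, 95% interval -0.07 to 0.15, limma adjusted p = 0.723). For Ehd3 the values were 39.3 CPM in uridine libraries and 39.9 CPM in the mix (-0.02, 95% interval -0.15 to 0.10). For Alcam they were 44.3 CPM in uridine libraries and 44.0 CPM in the mix (0.01, 95% interval -0.09 to 0.11). Clu averaged 15.0 CPM in uridine libraries and 15.6 CPM in the mix (-0.05, 95% interval -0.21 to 0.11). None of these 4 passed the limma test. Expressed as a proportion, the uridine levels lay 0.312 ± 0.0334 (Selp), 0.344 ± 0.0526 (Ehd3), 0.315 ± 0.122 (Alcam) and 0.362 ± 0.0424 (Clu) of the way from vehicle to young.

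The other 4 genes had wider intervals. Dsg2 averaged 2.40 CPM in uridine libraries and 2.38 CPM in the mix (difference 0.02, 95% interval -0.32 to 0.35), and its proportion was 0.325 ± 0.0432. Cd38 averaged 5.94 CPM in uridine libraries and 6.40 CPM in the mix (-0.10, 95% interval -0.42 to 0.22). Its vehicle level was 1.41 times the young level, and its proportion was 0.555 ± 0.546. Ghr averaged 1.52 CPM in uridine libraries and 1.21 CPM in the mix (0.20, 95% interval -0.25 to 0.65), and Sult1a1 1.55 CPM in uridine libraries and 1.34 CPM in the mix (0.16, 95% interval -0.21 to 0.53). Over the 10 genes the median difference was -0.0053, and over all genes it was -0.010.

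**Figure D3:**
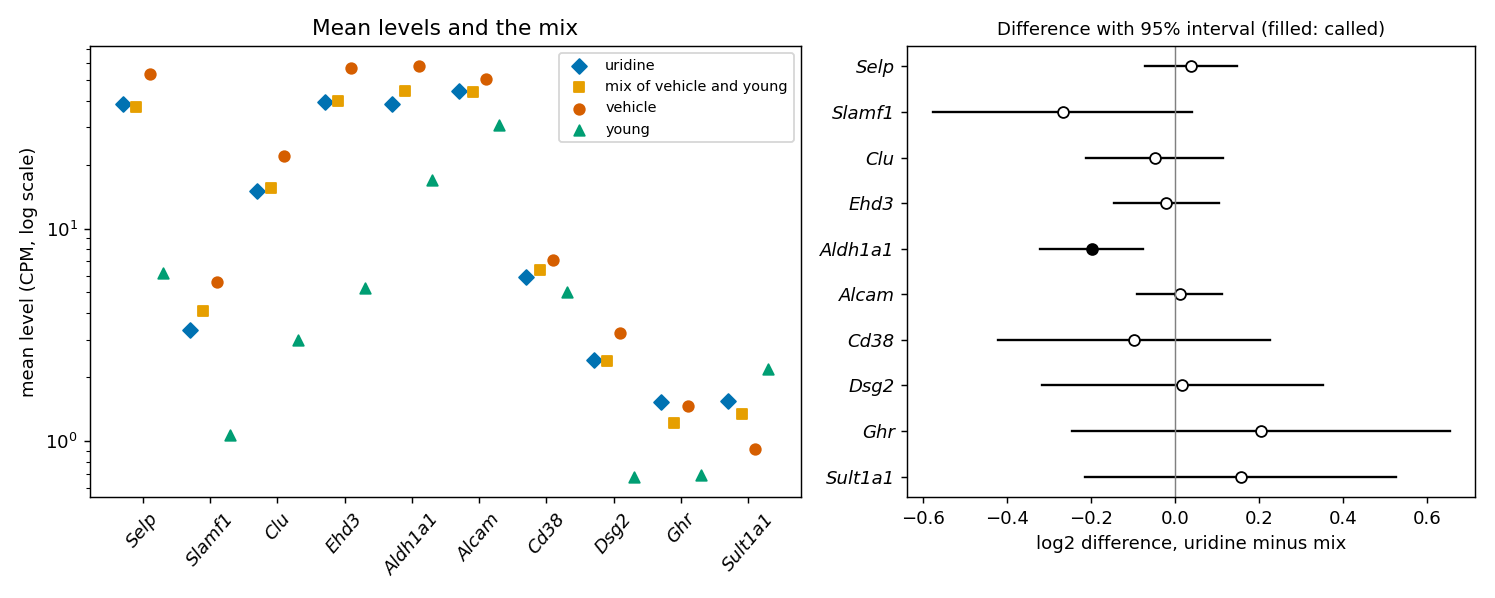
Left, mean level in uridine, in the mix of vehicle and young, in vehicle and in young libraries (CPM, log axis); right, log2 difference of uridine minus mix with its 95% interval from limma, filled where the adjusted p is under 0.05. Aldh1a1 is the filled point, at -0.20, and Slamf1 has the lowest value, -0.27, with an interval that crosses 0.

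Of the 10 genes, Selp, Slamf1, Clu and Ehd3 had at least 5 times the young level in vehicle libraries, with ratios of 8.56, 5.26, 7.31 and 10.9. Their uridine levels were 72.4%, 59.4%, 68.8% and 68.7% of the vehicle level. The mix alone would give 70.6%, 73.0%, 71.2% and 69.7%. The 180 vehicle-high genes, at least 10 times higher in vehicle, kept a median of 60.2%. For genes at least 5 times higher, the cut used for these 4, the median was 62.7%. Among the 180 genes, Slamf1 lay near the middle, at percentile 46.7. Selp, Clu and Ehd3 had kept more than most, at percentiles 89.4, 79.4 and 78.9. Of these 4, only Ehd3 meets the cut of 10 times. A mix keeps more of the vehicle level where the young level is higher, so the percentiles of the others set unlike genes side by side.

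**Figure D4:**
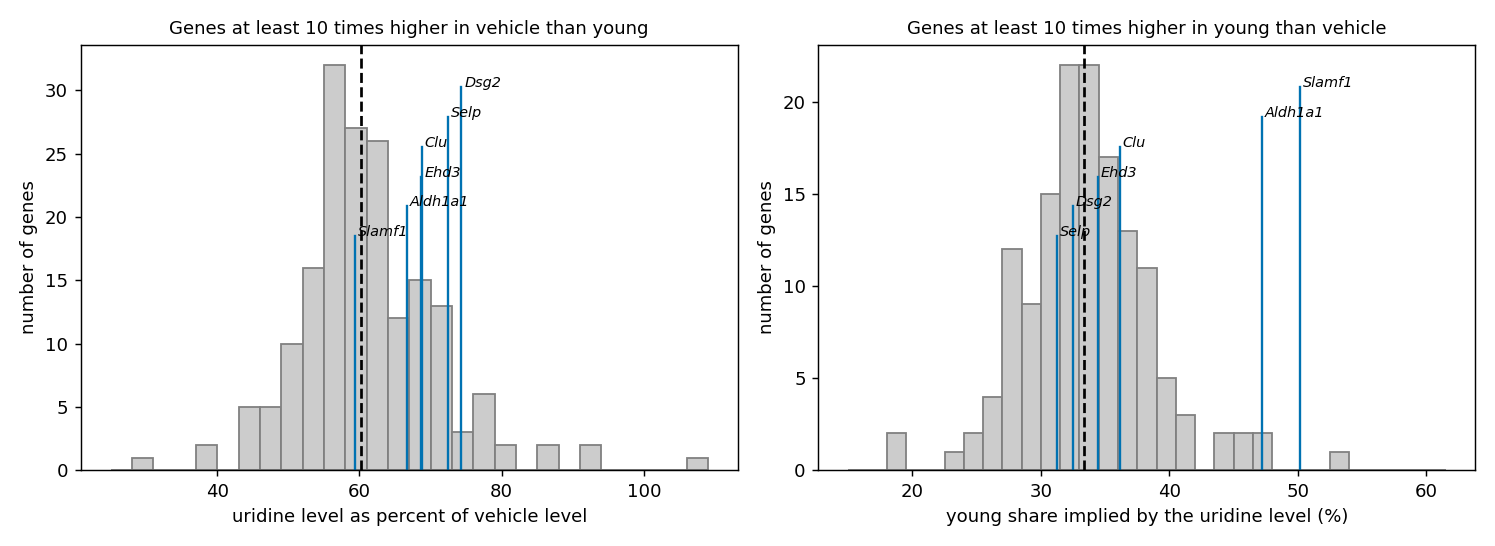
Left, uridine level as percent of the vehicle level for the 180 genes with at least 10 times their young level in vehicle libraries; right, young share implied by the uridine level for the 145 genes with at least 10 times their vehicle level in young libraries (vertical axes: number of genes; dashed: medians of 60.2% and 33.3%). Blue lines mark the genes described here whose vehicle level is at least 3 times the young level, which are not among the counted genes; Aldh1a1 and Slamf1 lie right of the other 4 in the right panel.

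Across the 12 libraries the 10 genes formed patterns that can be described by Pearson's r of log2(CPM + 0.5); the libraries of a group share their source, so r mostly describes the 4 group means. Selp, Ehd3, Clu and Aldh1a1 were close to each other, with r of 0.991 for Selp and Ehd3, 0.979 for Clu and Ehd3, 0.972 for Selp and Clu and 0.966 for Selp and Aldh1a1. Slamf1 was closest to Alcam (0.958), and Cd38 to Sult1a1 (0.918). Selp and Cd38 had an r of 0.07, and Aldh1a1 and Sult1a1 an r of -0.37.

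Among 12197 protein-coding genes with a mean of at least 1 CPM, those most like Selp were Rsrp1 (r 0.992), Nrp2, the neuropilin receptor (0.992), and Pml, which organises nuclear bodies (0.990). Nrp2 was also near Ehd3 (0.991), which was closest to Cp, the copper carrier ceruloplasmin (0.995). Cp averaged 24.8 CPM in uridine, 39.2 CPM in vehicle, 10.2 CPM in aged and 1.32 CPM in young libraries. Aldh1a1 was nearest to Bax, an effector of apoptosis (0.993), and Clu to Zmynd15 (0.990).

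Slamf1 was nearest to H2-Q4, a class I histocompatibility gene (0.988), and Shisa5 (0.987), and Alcam to Mcoln2, a lysosomal ion channel (0.990). Cd38 was nearest to Hid1 (0.995), with 4.50 CPM in uridine, 5.50 CPM in vehicle, 68.7 CPM in aged and 3.71 CPM in young libraries, and to Xbp1, a transcription factor of plasma cells (0.994). Sult1a1 was nearest to the kinase gene Map3k1 (0.992). The closest genes to Dsg2 and Ghr, Creld1 and Cdc42bpb, reached 0.975 and 0.935.

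Other genes that earlier work has linked to stem cell ageing were counted from a list of 38, of which 33 were tested. In aged against young cells 21 rose and 10 fell (median log2 fold change 0.81), where 33.2% of all genes tested rose and 32.1% fell. Among them were Prtn3, a granule protease, which rose by 0.87, and Thbs1, thrombospondin, which fell by 3.09 on the log2 scale. In uridine against vehicle libraries 16 fell and 5 rose (median -0.26), where 18.1% of all genes tested fell and 20% rose. Itgb3, an integrin of platelets, had 269.8 CPM in uridine and 380.8 CPM in vehicle libraries (-0.50, SE 0.0313), and Jun, a transcription factor of AP-1, 660.7 CPM in uridine and 88.7 CPM in vehicle libraries (2.90, SE 0.0262). Against the mix 5 were lower, 2 were higher and 26 were not called, where 12.1% of all genes tested were called. Jun differed from the mix by -0.09 on the log2 scale (limma adjusted p = 0.000576) and Cd9, a tetraspanin, by -0.14 (limma adjusted p = 0.00789).

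Genes that work with each of the 10 were counted in the same way, as higher, lower and not called. Of 14 selectin ligand and leukocyte adhesion genes, 6, 6 and 2 fell in these classes in uridine against vehicle, and 4, 8 and 2 in aged against young cells. Here and for the lists below, of all genes tested 20% were higher and 18.1% lower in uridine against vehicle. In aged against young cells 33.2% were higher and 32.1% lower, and against the mix 5.32% were higher and 6.75% lower. Itga4, an integrin subunit, had 322.9 CPM in uridine and 241.6 CPM in vehicle libraries (0.42), and Icam1, an integrin ligand, 62.9 CPM in uridine and 91.5 CPM in vehicle libraries (-0.54). Against the mix 3 were higher and 4 lower, with Itga4 above it by 0.18 and Icam1 at -0.16.

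For 13 immunoglobulin superfamily adhesion genes beside Alcam the counts were 4, 3 and 6 in uridine against vehicle and 7, 5 and 1 in aged against young, and all 13 were not called against the mix. Cd47, which marks cells as self to macrophages, had 520.8 CPM in uridine and 582 CPM in vehicle libraries (-0.16), and Epcam 32.4 CPM in aged and 1.41 CPM in young libraries (4.51). For 16 desmosome and junction genes the counts were 3, 4 and 9 in uridine against vehicle. F11r, a junction adhesion molecule, had 18.1 CPM in uridine, 32.0 CPM in vehicle and 2.84 CPM in young libraries (-0.83 against vehicle), and was the 1 of 16 below the mix (-0.30, limma adjusted p = 0.00746).

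Among 13 genes of the SLAM family and its stem cell sort, 3, 8 and 2 were higher, lower and not called in uridine against vehicle, and 2 were below the mix. Slamf8, a family member of macrophages, had 11.2 CPM in uridine, 23.4 CPM in vehicle, 0.298 CPM in aged and 1.51 CPM in young libraries, and lay below the mix by limma (-0.50, adjusted p = 0.00129). Slamf7 had 44.6 CPM in uridine and 63.6 CPM in vehicle libraries (-0.51). Of 17 growth hormone signalling genes 9, 3 and 5 fell in these classes, with Socs3, an inhibitor of cytokine receptors, at 39.4 CPM in uridine and 21.0 CPM in vehicle libraries (0.91). Against the mix 3 of the 17 were higher and 2 lower, with the receptor gene Igf1r above it by 0.18.

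Of 20 genes of NAD metabolism, the pathway of Cd38, 3 were higher and 8 lower in uridine against vehicle, and 4 were lower and 16 not called against the mix. Nampt, the rate-limiting enzyme of NAD salvage, had 210.4 CPM in uridine and 296.4 CPM in vehicle libraries (-0.49, SE 0.0347) and lay below the mix by a difference of -0.13 (limma adjusted p = 0.00371). Bst1, the paralog of Cd38, had 27.3 CPM in uridine, 44.2 CPM in vehicle, 0.710 CPM in aged and 13.7 CPM in young libraries. It differed from the mix by -0.32 (limma adjusted p = 0.00546). In aged against young cells Bst1 fell by 4.27 on the log2 scale, the direction opposite to that of Cd38.

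For Aldh1a1, 13 genes of retinoid metabolism and its receptors gave 3 higher, 3 lower and 7 not called in uridine against vehicle, and 1 lower against the mix, the mitochondrial dehydrogenase gene Aldh2 (-0.07, limma adjusted p = 0.0263). Dhrs3, a retinal reductase, had 27.6 CPM in uridine and 37.5 CPM in vehicle libraries (-0.44), and Rarg, a retinoic acid receptor, 21.9 CPM in uridine and 28.2 CPM in vehicle libraries (-0.36). Aldh1a7 moved the other way from Aldh1a1 (log2 fold change 2.17, SE 0.399, edgeR adjusted p = 3.28e-05). Of 6 sulfotransferase and sulfate donor genes tested, 3 were lower and 3 not called in uridine libraries, among them Papss2, which makes the sulfate donor (-0.19).

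The 14 tested genes of complement, apolipoproteins and clusterin receptors gave 2 higher, 6 lower and 6 not called in uridine against vehicle. Apoe, the lipid carrier apolipoprotein E, had 52.9 CPM in uridine, 15.2 CPM in vehicle, 390.3 CPM in aged and 133 CPM in young libraries. Trem2, a receptor of macrophages and microglia, had 16.6 CPM in uridine and 30.5 CPM in vehicle libraries (-0.87), and lay below the mix by limma (-0.41, adjusted p = 0.00131). Of 15 endocytic recycling genes 1 was higher and 4 lower in uridine libraries. Ehd4 had 157.2 CPM in uridine and 180.3 CPM in vehicle libraries (-0.20), and Ehd2 2.97 CPM in uridine and 1.54 CPM in vehicle libraries (0.94), so the paralogs of Ehd3 moved in opposite directions.

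**Figure D5:**
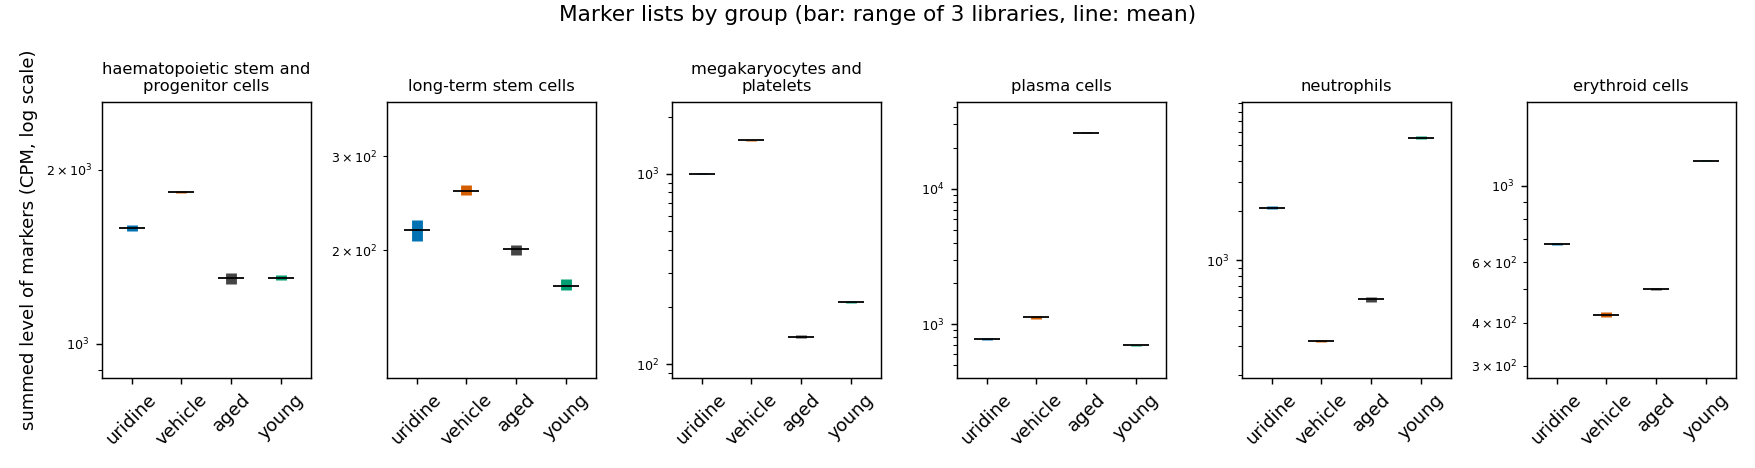
Summed CPM (log axes) of 6 marker lists by group, with bars for the range of 3 libraries and a line for the mean. Plasma cell markers reach 26170 CPM in aged libraries, most of it from Jchain. Megakaryocyte and platelet markers are highest in vehicle libraries, at 1496 to 1514 CPM, with uridine libraries at 994 to 1011 CPM.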

How the data were processed

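Per the labels' protocols, messenger RNA was taken from Trizol extracts with poly-T beads and read in pairs on a NovaSeq machine. The submitters' processing notes name HISAT2 2.0.5 and mm10. The authors deposited raw read counts for 54532 Ensembl gene IDs, and the sources used here do not give how reads were counted, with which annotation or with what use of strand. With GENCODE M21, 54409 IDs were matched and 123 were not, which held at most 0.0649% of a library's counts. No column was left unused.

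Groups were taken from the sample titles. R 4.3.3 and edgeR 4.0.16 were used to filter genes with filterByExpr on the 4 groups, to compute TMM factors and to fit 1 mean per group to all 12 libraries (8 residual and 26.47 prior degrees of freedom). Quasi-likelihood F-tests are two-sided, with Benjamini-Hochberg adjustment over all 16675 genes and a threshold of 0.05. A level outside vehicle and young took the larger of both one-sided p-values. The mix was tested with limma 3.58.1 (trend) on log2(CPM + 0.5), with the proportion taken as known, so its error is not in the intervals. The genes that set the proportion had at least 5 CPM in the higher group with the lower level set to 0.05 CPM where it was less, and the 10 genes were left out. Scripts were tested on simulated data. Alternatives were DESeq2 1.42.0, voom, other scaling factors and filters, immunoglobulin genes left out, a log2 threshold of 1, a fit of the 6 compared libraries, a block for the replicate number, other proportions, pseudocounts and partners of the mix, and leaving out each library.

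The genes and lists were chosen with earlier results of these data known. Of other genes, up to 4 called genes per list with the smallest p, or the 2 with the highest level where no gene was called, and the 3 genes most like each of the 10 could be named. Lists are described by counts, with no set test. Within a group, all pairs of libraries differed by more than sampling noise (chi-square per degree of freedom of 2.27 to 3.94 on genes with at least 50 counts). Promoter sequences are RefSeq's.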

Additional observations from a re-analysis of the deposited data

How the results depend on the processing

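The counts of the 10 genes called between groups were recomputed under the alternatives listed in the methods that apply to them. The results on the mix were recomputed under fewer of them. Scaling factors other than library totals were not tried there, nor were immunoglobulin genes left out. Counts outside vehicle and young were not recomputed with voom, the DESeq2 test or the fit of the 6 compared libraries. With a log2 change of at least 1 as a further condition, 0 of the 10 were called in uridine against vehicle (0 higher, 0 lower), 2 were lower in vehicle against aged, and 3 were called in uridine against aged (0 higher, 3 lower). With library totals in place of TMM factors, 2 were lower in vehicle against aged. The single gene higher in uridine against vehicle, Sult1a1, gave a count of 0 without a low-count filter, with voom and in a fit of the 6 compared libraries only, and 0 to 1 with single libraries left out. In uridine against young, 0 to 1 were lower with single libraries left out. Against the mix, the count of genes called and lower was 0 at the upper quartile of the proportion, at the proportion from vehicle-high genes, with library totals and without a low-count filter, and 0 to 1 with single libraries left out. The level kept by vehicle-high genes was 62.7% for genes at least 5 times and 58.3% for genes at least 20 times higher in vehicle, 61.1% with library totals, and 59.8% to 60.5% with single libraries left out. The proportion of 33.3% ran from 33.0% to 33.9% where it was estimated again from young-high genes; the quartiles over those genes (31.0% and 36.3%) and the 39.8% from vehicle-high genes lie outside that range. The cause of these shifts was not tested.

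The signs that turned belonged to values that had not been called. They were Slamf1 in vehicle against aged with library totals (0.037), and Ghr in uridine against vehicle with voom (-0.022) and with single libraries left out (-0.257 to 0.298). Against the mix they were Selp (-0.0046), Alcam (-0.0048) and Dsg2 (-0.014) at the lower quartile of the proportion, and Clu (0.0014) and Ehd3 (0.035) at the upper quartile. Clu (0.064) and Ehd3 (0.104) turned at the proportion from vehicle-high genes and Ehd3 with library totals (0.0093). With single libraries left out the differences from the mix ran from -0.0797 to 0.0296 for Ehd3, from -0.0325 to 0.0426 for Alcam, from -0.239 to 0.0388 for Cd38 and from -0.0514 to 0.108 for Dsg2.

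Same-numbered libraries did not deviate together from their group means (correlations of -0.0344 to 0.0115), so the replicate numbers do not pair the samples. With the replicate number as a block, 7 of the 10 were called in uridine against vehicle (6 lower, 1 higher) and Aldh1a1 kept its call against the mix (limma adjusted p = 0.0211), and the block changed no other count. The lowest counts were those of Ghr and Dsg2, with 39 each over the young libraries.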
